A study of Mus musculus with 60 samples.

Results

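The change in the kidney transcriptome over the first hours of light was measured in 10 control mice, 5 killed at Zeitgeber time 0 (ZT0, lights on) and 5 at ZT4. They are 10 of the 60 mice of the series, which spans 6 time points and 2 genotypes, and they were chosen by their genotype and time labels alone. Control mice were male Bmal1lox/lox littermates on a C57BL/6J background that lacked the Pax8-rtTA and LC1-Cre transgenes, so their Bmal1 alleles were floxed but intact. From 8 weeks of age they drank 2 mg/ml doxycycline (DOX) with 20 mg/ml sucrose for 2 weeks. So did the mice used below for comparison, 10 Bmal1lox/lox/Pax8-rtTA/LC1-Cre males (cKOt) of the same 2 time points. In cKOt mice DOX induces Cre along the renal tubule through the Pax8-rtTA and LC1-Cre transgenes, and Bmal1 is lost there. All mice had chow ad libitum in a cycle of 12 h light and 12 h dark and were killed about 1 month after DOX. The labels call the tissue renal tubule, while the study's methods describe pieces of whole perfused kidney. The study kept 5 of 6 mice per group by RNA quality and by how the transcriptomes clustered, and the mouse left out at control ZT4 had clustered with night samples, so the spread within the groups may be understated.

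The mammalian clock is a transcriptional loop. BMAL1 (encoded by Arntl) with CLOCK or NPAS2 binds E-boxes and drives the genes of its own repressors, the Period and cryptochrome proteins, and of REV-ERBα and REV-ERBβ (Nr1d1 and Nr1d2), which in turn repress Arntl through ROR elements that ROR proteins activate. DBP, TEF and HLF carry the rhythm to output genes through D-boxes, where NFIL3 opposes them. In nocturnal mice lights on opens the resting phase, when food intake, activity and body temperature decline, and the kidney then changes its transport and metabolism under both its own clock and such systemic signals.

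Gene counts summed to 17834053 to 20175513 per library at ZT0 and 18013474 to 19372779 at ZT4, so the groups were sequenced to like depth. On principal components of the 10 libraries the first axis (22.7% of the variance) placed all ZT0 mice (-22.2 to -10.9) apart from all ZT4 mice (5.85 to 24.8), and ZT0 mouse 1 stood apart on the second axis. Single mice leaned toward the other time point. ZT0 mouse 5 was the ZT0 mouse nearest to the ZT4 group in 11 of 15 called core clock genes, ZT4 mouse 4 was nearest to the ZT0 group in 9 of 15, and ZT4 mouse 2 was nearest to it in 10 of 17 called heat shock genes. Markers of proximal tubule were abundant (summed level 46400 to 59250 CPM, counts scaled to library size, at ZT0 and 48380 to 53140 at ZT4), and markers of podocytes (349 to 415 and 340 to 419 CPM) and endothelium (388 to 401 and 373 to 428 CPM) were present at both times, so the tissue was not tubule alone. Of 83 tested marker genes in 16 lists, 2 were called higher at ZT4 (Slc5a12 and Aqp3) and 1 lower (Kcnj1), a share below the 11.8% of all tested genes. The counts were 5 higher and 5 lower at an unadjusted p under 0.05 and 2 and 2 by both DESeq2 and limma. In bulk tissue fewer cells of a type and less RNA per cell cannot be told apart.

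Between ZT0 and ZT4, 1833 of 15546 tested genes (11.8%) changed at an adjusted p under 0.05 by the quasi-likelihood test of edgeR, 881 (5.67%) higher and 952 (6.12%) lower at ZT4. Most changes were small. The median size was 0.304 on the log2 scale, 338 genes changed at least 1.5-fold, of which 228 were higher, and 115 changed at least 2-fold, of which 79 were higher. The 5 mice of one time point all lay above the 5 of the other for 1155 genes (7.43% of those tested), among them 399 of the called higher and 477 of the called lower genes. The fit held 2 factors of unwanted variation estimated from all 60 libraries, and without them 1009 genes were called, 506 higher and 503 lower, all of them among the 1833. Other fits used the authors' listed batch in place of the factors, the 10 mice alone without factors, or batches that held both time points. They are given below for only some of the named genes whose call they ended. A gene given without them may still have lost its call in them.

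Core clock genes were among the largest changes. Of 18 tested members of the 4 core clock lists, 10 rose, 5 fell and 3 did not pass the test, and 11 changed at least 2-fold. Of the 4 tested activators 3 fell, and of the 10 tested Period, cryptochrome, REV-ERB, DEC and CHRONO repressors 7 rose and 1 fell, as the plot of clock genes by mouse shows.

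**Figure D1:**
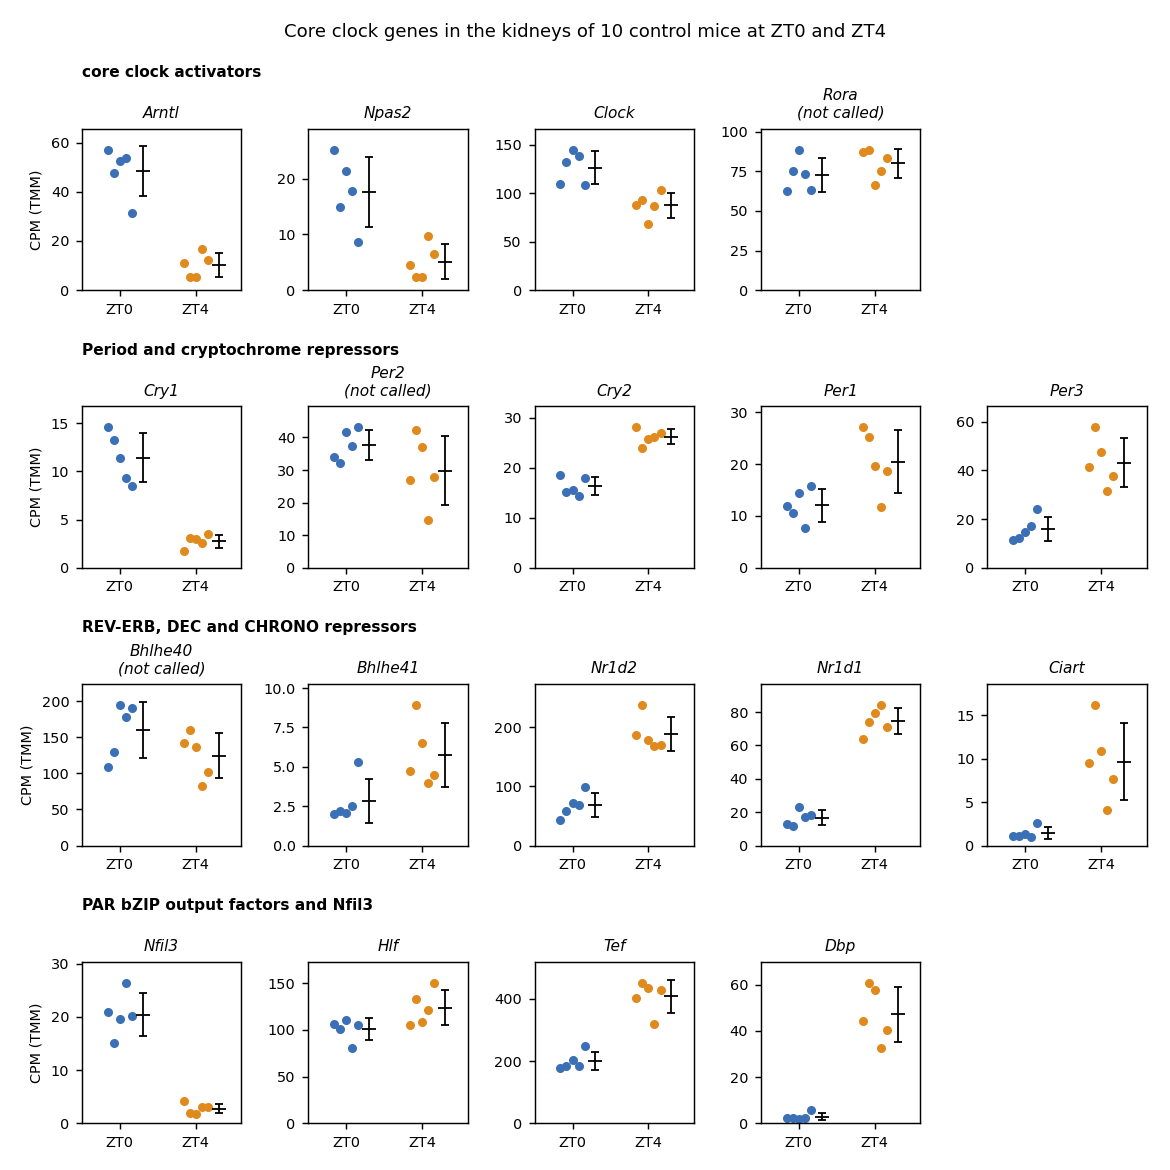
CPM after TMM scaling (linear axis from 0) of the 18 core clock genes in each control mouse at ZT0 (blue) and ZT4 (orange), with mean and SD (n = 5) beside the points. Dbp, Nr1d1, Ciart and Tef show every ZT4 mouse above every ZT0 mouse, Arntl, Nfil3 and Cry1 show the reverse, and Rora, Per2 and Bhlhe40 were not called.

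Arntl (chr7:113207465-113314126, plus strand, GRCm38), which encodes BMAL1, had 57.1, 47.6, 52.4, 53.8 and 31.3 CPM in the 5 mice at ZT0 and 11.2, 5.54, 5.55, 16.8 and 12.3 CPM at ZT4. The groups did not overlap, with ZT0 mouse 5 lowest at its time point, and the log2 fold change was -2.21 (SE 0.21, adjusted p = 1.88e-11). Npas2, whose product can take the place of CLOCK, was 25.2, 14.9, 21.4, 17.7 and 8.64 CPM at ZT0 and 4.53, 2.33, 2.36, 9.72 and 6.48 CPM at ZT4. Here the groups touched, since ZT0 mouse 5 lay below ZT4 mouse 4, and the log2 fold change was -1.802 (SE 0.24, adjusted p = 1.59e-07). Clock fell less, from 126.5 ± 16.8 to 87.7 ± 12.8 CPM (SD, n = 5 each, log2 fold change -0.47, adjusted p = 4.15e-04). Rora was 72.6 ± 10.7 CPM at ZT0 and 80.0 ± 9.24 CPM at ZT4 (adjusted p = 0.288), and Rorb did not reach the expression filter. The 4 tested activators had a median log2 fold change of -1.14 (3 lower, 0 higher, the same counts by DESeq2, by limma and at an unadjusted p under 0.05), beside 0.0055 over all tested genes.

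Among the Period and cryptochrome repressors 3 rose and 1 fell. Cry1 fell about as steeply as Arntl. It measured 14.5, 13.3, 11.4, 9.34 and 8.52 CPM at ZT0 and 1.75, 3.05, 2.97, 2.53 and 3.47 CPM at ZT4, with no overlap (log2 fold change -2.05, SE 0.14, adjusted p = 6.44e-17). Its paralog Cry2 moved the other way, from 16.4 ± 1.84 to 26.2 ± 1.495 CPM (log2 fold change 0.65, adjusted p = 7.74e-10). Per3 rose from 16.0 ± 5.11 to 43.2 ± 9.93 CPM (log2 fold change 1.43, adjusted p = 8.03e-10), again with ZT0 mouse 5 highest of its group at 24.2 CPM. Per1 rose by 0.68 (12.1 ± 3.20 to 20.5 ± 6.07 CPM, adjusted p = 0.0398), but its groups overlapped and its adjusted p was 0.0811 to 0.145 without any 1 of ZT0 mice 1, 2 and 4 or ZT4 mice 1 and 2 and 0.0502 without the factors of unwanted variation. Per2 was 37.6 ± 4.70 CPM at ZT0 and 29.8 ± 10.6 CPM at ZT4 (log2 fold change -0.35, adjusted p = 0.167, or 0.0237 without ZT4 mouse 2). The list median was 0.65.

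The REV-ERB, DEC and CHRONO repressors had the highest list median, 1.5, with 4 of 5 members called higher. Nr1d1 (chr11:98767932-98775333, minus strand) measured 12.8, 11.9, 22.9, 17.3 and 18.3 CPM at ZT0 and 63.9, 74.2, 79.3, 84.2 and 70.8 CPM at ZT4. The lowest ZT4 mouse was thus well above the highest ZT0 mouse (log2 fold change 2.08, SE 0.21, adjusted p = 1.55e-10). Nr1d2 rose from 68.3 ± 20.5 to 188.5 ± 28.55 CPM (log2 fold change 1.502, adjusted p = 6.94e-12). Ciart, encoding the repressor CHRONO, was 1.13, 1.09, 1.35, 0.939 and 2.61 CPM at ZT0 and 9.55, 16.2, 10.9, 4.12 and 7.62 CPM at ZT4 (log2 fold change 2.76, SE 0.31, adjusted p = 3.83e-09). Bhlhe41 (DEC2) rose by 1.02 (adjusted p = 0.00144) although ZT0 mouse 5, at 5.27 CPM, lay among the ZT4 mice. Bhlhe40 (DEC1) was 160 ± 38.6 and 124 ± 31.5 CPM (adjusted p = 0.0767, and 0.0204 to 0.0488 without ZT0 mouse 1, ZT0 mouse 2 or ZT4 mouse 2).

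Dbp (chr7:45705088-45710203, plus strand) showed the largest rise among the genes named here. Its 5 ZT0 mice had 2.10, 2.12, 1.97, 2.32 and 5.56 CPM and its 5 ZT4 mice 44.4, 60.9, 57.6, 32.8 and 40.4 CPM. ZT0 mouse 5 again lay toward the ZT4 group, and the log2 fold change of 4.00 (SE 0.22, adjusted p = 1.86e-20) ranged from 3.85 to 4.38 when any single mouse was left out. Tef rose from 199 ± 29.0 to 408 ± 52.2 CPM (log2 fold change 1.03), and Hlf by 0.32 from 101 ± 12.0 to 124 ± 18.6 CPM with overlapping groups (adjusted p = 0.00298, or 0.0972 in the 10 mice alone). Nfil3, the D-box repressor, had the largest fall among the genes named here. It measured 21.0, 15.1, 19.6, 26.4 and 20.1 CPM at ZT0 and 4.09, 1.99, 1.81, 2.97 and 2.95 CPM at ZT4 (log2 fold change -2.86, SE 0.36, adjusted p = 5.28e-08).

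RefSeq promoter windows (GRCm38.p6, 250 bases before to 50 after a start site) were given for 16 of the 18 clock genes and were searched on both strands for an E-box (CACGTG), a D-box (TTATGNAA) and a ROR element (TAGGTCA). Of all 32851 windows of that length, 7.15% held the E-box, 3.38% the D-box and 2.61% the ROR element. Counted per gene, as for the clock genes, 11.4%, 2.7% and 2.37% of the 11415 tested genes with a window held them. Among the clock genes 5 had an E-box (Tef, Cry1, Per1, Bhlhe41 and Ciart), 2 a D-box (Per1 and Per3) and 2 a ROR element (Nfil3 and Arntl, in Arntl after the start site). A match describes the letters of the window and is no evidence of binding. The upstream part of 4 windows is printed 5′ to 3′ on the gene's strand with these motifs in capitals. They were chosen because they pair large rises and falls with different motifs. Ciart, with E-boxes starting 116, 58 and 44 bases before its start, and Per3, with D-boxes 205 and 158 bases before it, rose. Cry1 fell although its window also holds an E-box, 60 bases before the start, and Nfil3, with a ROR element on the opposite strand 12 bases before its start, fell too.
Ciart, chr3:95882247-95882478, minus strand: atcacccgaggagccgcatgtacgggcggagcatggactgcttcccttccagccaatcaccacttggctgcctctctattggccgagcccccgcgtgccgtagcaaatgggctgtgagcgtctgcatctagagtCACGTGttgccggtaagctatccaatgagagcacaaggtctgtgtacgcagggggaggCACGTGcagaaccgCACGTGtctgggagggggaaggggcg
Per3, chr4:151044796-151044915, minus strand: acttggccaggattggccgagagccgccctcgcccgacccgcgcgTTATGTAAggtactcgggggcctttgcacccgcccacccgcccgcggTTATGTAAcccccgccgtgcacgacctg
Cry1, chr10:85185089-85185304, minus strand: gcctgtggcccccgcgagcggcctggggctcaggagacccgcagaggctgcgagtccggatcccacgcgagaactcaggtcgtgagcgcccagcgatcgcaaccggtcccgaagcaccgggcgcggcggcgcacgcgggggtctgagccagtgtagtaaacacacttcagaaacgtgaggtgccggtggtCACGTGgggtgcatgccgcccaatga
Nfil3, chr13:52981045-52981289, minus strand: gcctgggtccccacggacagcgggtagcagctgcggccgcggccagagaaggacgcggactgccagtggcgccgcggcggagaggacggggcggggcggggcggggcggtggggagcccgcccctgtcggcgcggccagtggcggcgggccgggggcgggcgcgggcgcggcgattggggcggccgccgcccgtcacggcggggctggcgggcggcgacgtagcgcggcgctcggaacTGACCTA

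Of 8 clock protein kinases and ubiquitin ligases, 3 rose and 1 fell, all by less than 0.5, beside 5.67% and 6.12% of all tested genes. Btrc, a ubiquitin ligase subunit that targets Period proteins, rose by 0.25 (25.7 ± 1.76 to 30.5 ± 1.40 CPM, adjusted p = 0.0108, or 0.0762 in the shared batches) without overlap of the groups. The deubiquitinase gene Usp2 rose by 0.32 (adjusted p = 0.0191, but 0.0615 to 0.113 without ZT0 mouse 1, ZT0 mouse 4 or ZT4 mouse 2 and 0.0808 in the 10 mice alone). Fbxl21 (0.43, adjusted p = 0.0492) and Csnk1d (-0.11, adjusted p = 0.0368) lost the call when any of 8 and any of 6 of the 10 mice was left out, with adjusted p up to 0.203 and 0.140, and without the factors of unwanted variation (0.131 and 0.589).

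In 4 lists, of heat shock chaperones, endoplasmic reticulum chaperones, ribosome biogenesis and sterol synthesis, every called member was lower at ZT4, 17 of 21, 16 of 30, 17 of 32 and 10 of 23 beside 6.12% of all tested genes. Of the 21 tested heat shock genes 17 were lower at ZT4 and 0 higher, with 19 lower and 0 higher at an unadjusted p under 0.05 and 17 and 0 by DESeq2 and by limma, and all 21 fold changes were negative, with a median of -0.40. Without the factors of unwanted variation 13 were lower. Hsph1, an HSP110 chaperone, was 247, 292, 323, 311 and 270 CPM at ZT0 and 175, 245, 154, 110 and 148 CPM at ZT4, so that ZT4 mouse 2 came close to the lowest ZT0 mouse (log2 fold change -0.77, SE 0.17, adjusted p = 0.0015). The HSP40 gene Dnajb1 was 49.5 to 65.9 CPM at ZT0 and 24.1 to 28.2 CPM in 4 ZT4 mice, but 51.4 CPM in ZT4 mouse 2 (log2 fold change -0.91, adjusted p = 4.72e-04, and -1.19 without that mouse). The inducible HSP70 genes Hspa1a and Hspa1b fell by 1.151 and 1.09 with overlapping groups (adjusted p = 0.0134 and 0.018). They are near-identical copies whose reads cannot be divided with certainty, and both calls depended on single mice, Hspa1a with 0.0571 to 0.0659 without ZT0 mouse 3 or ZT4 mouse 4 and Hspa1b with 0.0595 to 0.0883 without ZT0 mouse 3, ZT4 mouse 1 or ZT4 mouse 4. In the 10 mice alone the adjusted p was 0.0602 and 0.127, and with the listed batch 0.0902 and 0.134.

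**Figure D2:**
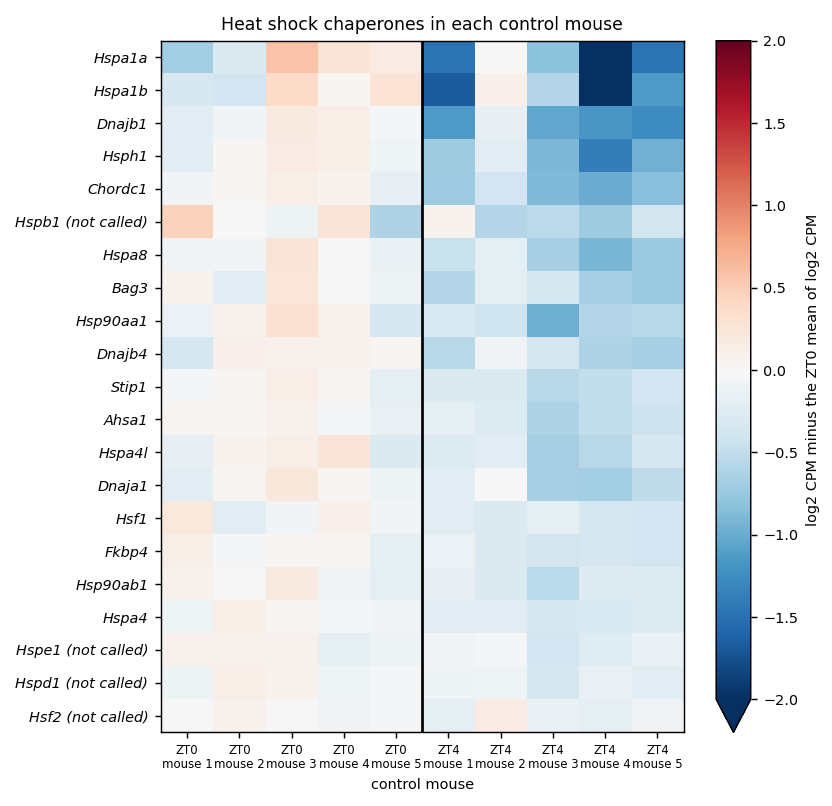
Log2 CPM of the 21 tested heat shock genes in each of the 10 control mice, as the difference from the mean of the 5 ZT0 mice (red higher, blue lower, with differences under -2 drawn at -2). ZT4 mice are mostly blue, and ZT4 mouse 2 is the palest of them in Hspa1a, Hspa1b, Dnajb1 and Hsph1.

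Cirbp, a cold-inducible RNA-binding protein gene, moved opposite to the heat shock genes. It was 17.5, 16.4, 16.8, 16.0 and 21.4 CPM at ZT0 and 38.8, 19.5, 31.2, 37.9 and 36.4 CPM at ZT4, again with ZT4 mouse 2 nearest to the other time point (log2 fold change 0.80, SE 0.16, adjusted p = 2.95e-04). The other member of that list, Rbm3, had a log2 fold change of -0.06 and was not called.

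Of 30 genes of endoplasmic reticulum chaperones and the unfolded protein response, 16 fell and 0 rose (median -0.25). At an unadjusted p under 0.05 the counts were 19 and 0, and DESeq2 and limma each gave 17 and 0. Creld2 and Manf, both encoding secreted proteins induced by endoplasmic reticulum stress, fell from 44.2 ± 5.73 to 26.1 ± 7.88 CPM (log2 fold change -0.79, adjusted p = 0.00139) and from 70.7 ± 9.46 to 43.4 ± 9.95 CPM (-0.67, adjusted p = 0.00232) without overlap. Sdf2l1 (-0.83, adjusted p = 0.00746) and Ddit3, which encodes the stress factor CHOP (-0.79, adjusted p = 0.0138, or 0.0796 with the listed batch), fell with overlapping groups.

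Of 32 ribosome biogenesis genes 17 fell and 0 rose (median -0.22), with 19 and 0 at an unadjusted p under 0.05, 18 and 0 by DESeq2 and 17 and 0 by limma, and 9 lower without the factors of unwanted variation. Rrp12, Heatr1 and Polr1a, which act in export and synthesis of ribosomal precursors, fell by 0.58, 0.46 and 0.36 (adjusted p = 2.43e-05, 1.27e-06 and 1.40e-04). Heatr1 had 34.9 to 39.4 CPM in the ZT0 mice and 24.3 to 28.4 CPM in the ZT4 mice. Of the 17, 11 had no overlap of the groups, beside 477 of the 952 genes called lower over all tested genes. Fbl, the rRNA methyltransferase fibrillarin, fell by 0.42 (adjusted p = 0.0255, but 0.0513 to 0.0675 without any 1 of ZT0 mice 1 and 5 and ZT4 mice 1, 4 and 5, and 0.054 without the factors of unwanted variation).

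Of 23 sterol synthesis and uptake genes 10 fell and 0 rose (median -0.21), with 12 and 0 at an unadjusted p under 0.05 and 10 and 0 by both DESeq2 and limma, and 7 lower without the factors of unwanted variation. Insig1, a sensor that holds back sterol synthesis, was 91.3, 97.9, 94.7, 127.9 and 104 CPM at ZT0 and 68.9, 53.9, 70.9, 50.6 and 59.9 CPM at ZT4 (log2 fold change -0.75, SE 0.16, adjusted p = 0.00105). Every ZT4 mouse was below every ZT0 mouse. Msmo1, an oxidase of cholesterol synthesis, fell by 0.66 (76.8 ± 5.54 to 47.1 ± 5.91 CPM, adjusted p = 3.75e-04) and Idi1, an isomerase of the same pathway, by 0.50 (32.8 ± 4.47 to 22.4 ± 1.02 CPM, adjusted p = 0.0156, or 0.0687 without ZT0 mouse 4 and 0.0573 in the shared batches), both without overlap. Fdps, encoding farnesyl diphosphate synthase, fell by 1.76 (adjusted p = 1.06e-04) from 1.57 ± 0.572 to 0.465 ± 0.170 CPM, a level that counts only reads placed uniquely and is uncertain because Fdps has many near-identical copies. In the list of 19 fatty acid synthesis genes 4 fell and 2 rose (median -0.15), beside 6.12% and 5.67% of all tested genes. The lower count was 2 without the factors of unwanted variation, with the listed batch and in the 10 mice alone. Scd2, a desaturase, fell by 0.68 (adjusted p = 5.10e-07), and Srebf1, the lipogenic transcription factor, by 0.67 (adjusted p = 2.48e-04, but 0.163 without the factors of unwanted variation), as did Acly and Elovl5 by 0.24 and 0.18, while the triglyceride synthesis genes Gpam and Dgat2 rose by 0.31 and 0.28 (adjusted p = 0.0112, or 0.108 in the shared batches, and 3.05e-04).

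**Figure D3:**
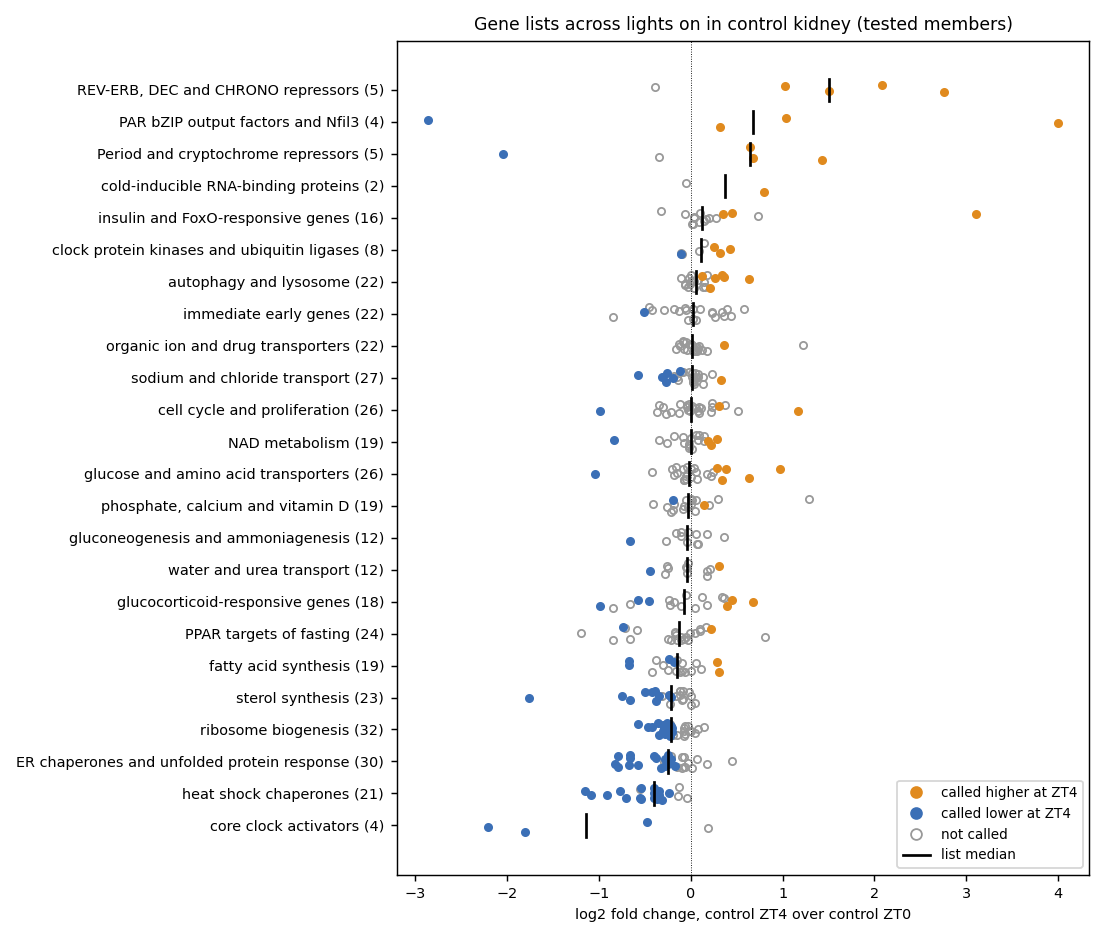
Log2 fold change of ZT4 over ZT0 in control mice for each tested member of 24 gene lists (number tested in parentheses), with called higher genes in orange, called lower genes in blue, genes not called open and the list median as a bar. The chaperone, ribosome and sterol lists hold called members on the lower side alone, and the clock lists spread farthest, from -2.86 for Nfil3 to 4.00 for Dbp.

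Of 16 genes that respond to low insulin or to FoxO 3 rose, beside 5.67% of all tested genes. Igfbp1, a secreted binder of insulin-like growth factors that insulin represses, was 0.754, 0.414, 0.843, 0.497 and 1.51 CPM at ZT0 and 6.39, 5.43, 7.19, 10.4 and 5.28 CPM at ZT4. The rise of 3.10 (SE 0.36, adjusted p = 8.40e-09) left no overlap, and it was the second largest rise after Dbp among the genes named here. Txnip, an inhibitor of glucose uptake, rose by 0.45 (adjusted p = 0.00332) and Cited2 by 0.35 (adjusted p = 0.027, but 0.0503 to 0.0805 without any 1 of ZT0 mice 2, 3 and 4 and ZT4 mice 3 and 4, and 0.0611 without the factors of unwanted variation). The list had 0 lower members (higher and lower 6 and 0 at an unadjusted p under 0.05, 3 and 0 by DESeq2 and by limma) and a median of 0.12. Depp1, which FoxO factors induce, was not in the list but was among the largest rises (2.19 to 2.49 CPM at ZT0, 3.88 to 9.83 CPM at ZT4, log2 fold change 1.37, adjusted p = 0.00137). Since Depp1 was picked for the size of its rise, it adds no weight to the result of the list. Of 22 autophagy and lysosome genes 6 rose, or 4 without ZT4 mouse 4, and 0 fell (10 and 0 at an unadjusted p under 0.05, 6 and 0 by DESeq2 and by limma). Wipi1, which acts in autophagosome formation, rose by 0.63 (34.1 ± 1.89 to 53.7 ± 2.56 CPM, adjusted p = 1.52e-07), the kinase gene Ulk1 by 0.36 (adjusted p = 1.11e-04), Gabarapl1 by 0.34 (adjusted p = 2.59e-04) and Atg14 by 0.27 (adjusted p = 0.0104, or 0.0758 without ZT4 mouse 4 and 0.0718 in the 10 mice alone).

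G6pc, the last enzyme of gluconeogenesis, fell from 712 ± 114 to 442 ± 89.9 CPM (log2 fold change -0.66, adjusted p = 0.00271), and it was the only 1 of 12 gluconeogenesis and ammoniagenesis genes to pass, a share near the 11.8% of all tested genes. Among 24 PPAR targets of fasting, Acot1 fell (-0.73, adjusted p = 0.00792, or 0.068 with the listed batch) and Cpt1a rose (0.22, adjusted p = 0.0299, but 0.0757 to 0.0945 without any 1 of ZT0 mice 1, 2 and 4 and ZT4 mouse 4 and 0.06 in the 10 mice alone), a share below the 11.8%. Of 18 glucocorticoid-responsive genes 3 were higher and 3 lower (median -0.08), beside 5.67% and 6.12% of all tested genes. The higher count was 0 without ZT0 mouse 2, ZT0 mouse 4 or ZT4 mouse 1 and 1 without ZT0 mouse 1, ZT4 mouse 2, ZT4 mouse 4 or ZT4 mouse 5, and the lower count was 1 without ZT0 mouse 5, ZT4 mouse 1, ZT4 mouse 4 or ZT4 mouse 5. Cdkn1a, the cell cycle inhibitor p21, fell by 0.99 without overlap (8.40 ± 1.45 to 4.43 ± 0.903 CPM, adjusted p = 0.0038), Sgk1 by 0.57 (adjusted p = 0.0414) and Tsc22d3 by 0.45 (adjusted p = 0.0251). Sgk1 and Tsc22d3 each lost the call without any 1 of 6 mice (adjusted p = 0.0698 to 0.101 and 0.0565 to 0.126), ZT0 mice 2 and 5 and ZT4 mice 1, 4 and 5 among them for both, and with the listed batch (0.187 and 0.0559). The other called members, Mt1, Nfkbia and Per1, rose, and without the factors of unwanted variation 0 members were higher. Of 22 immediate early genes, which respond to stimulation within minutes, Ier5 alone was called (-0.51, adjusted p = 0.0156, or 0.0547 with the listed batch and 0.0824 in the shared batches), a share below the 11.8% of all tested genes, with 2 higher and 3 lower at an unadjusted p under 0.05 and 0 higher and 1 lower by DESeq2 and by limma.

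Slc6a19, the main neutral amino acid transporter of the proximal tubule, was 251, 242, 284, 224 and 324 CPM at ZT0 and 468, 508, 511, 685 and 419 CPM at ZT4. All ZT4 mice lay above all ZT0 mice (log2 fold change 0.97, SE 0.11, adjusted p = 4.97e-09). The fructose carrier gene Slc2a5 rose by 0.63 (adjusted p = 0.00475) and Slc7a9, which carries cystine, by 0.39 (adjusted p = 4.84e-04), while Slc16a1, a monocarboxylate carrier, fell from 108 ± 15.8 to 51.0 ± 19.1 CPM (-1.04, adjusted p = 3.99e-06). In that list of 26 glucose and amino acid transporters 5 rose, including Slc2a2 and Slc5a12, and 1 fell, beside 5.67% and 6.12% of all tested genes. Of 27 sodium and chloride transport genes 1 rose and 6 fell (median 0.02), beside 5.67% and 6.12% of all tested genes. The lower count was 1 without ZT4 mouse 4 and 3 without any 1 of ZT0 mice 3, 4 and 5 and ZT4 mice 1 and 5. Slc9a3, the proximal sodium/proton exchanger NHE3, rose by 0.33 (177 ± 11.5 to 223 ± 12.6 CPM, adjusted p = 0.0016), and Kcnj1, the potassium channel ROMK, fell by 0.32 (adjusted p = 0.00321). Kcnj1 is also among the markers of the thick ascending limb, whose summed level was 6201 to 7173 CPM at ZT0 and 4887 to 7058 CPM at ZT4 and whose part in the result was not tested. The other called members that fell were Sgk1, Bsnd, Oxsr1 and Kcnj10. Scnn1a, an epithelial sodium channel subunit, fell by 0.27 (adjusted p = 0.0269, but 0.0531 to 0.140 without any 1 of ZT0 mice 1 and 3 and ZT4 mice 1, 4 and 5), and without the factors of unwanted variation 1 member of the list was lower. Of 12 water and urea transport genes 1 rose and 1 fell, beside 5.67% and 6.12% of all tested genes. Aqp3, a collecting duct water channel, rose by 0.30 (adjusted p = 0.00604, or 0.0729 without the factors of unwanted variation and 0.0988 with the listed batch). Avpr1a fell by 0.44 (adjusted p = 0.0195, but 0.0689 to 0.090 without ZT0 mouse 1, ZT0 mouse 4 or ZT4 mouse 5 and 0.0603 in the 10 mice alone). Slc22a4, an organic cation carrier, was the only 1 of 22 organic ion and drug transporters called (0.36, adjusted p = 0.00166), a share below the 11.8% of all tested genes. Of 19 phosphate, calcium and vitamin D genes 1 rose and 1 fell, a share near the 11.8%. The calcium pump gene Atp2b1 fell by 0.19 (adjusted p = 0.00593) and Fgfr1 rose by 0.15 (adjusted p = 0.0373, with 0.0522 to 0.140 without any 1 of 7 of the mice and 0.191 without the factors of unwanted variation).

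Of 19 genes of NAD metabolism 3 rose and 1 fell, beside 5.67% and 6.12% of all tested genes, and the higher count was 1 without ZT0 mouse 3, ZT0 mouse 4 or ZT4 mouse 4. Nt5e, the ectonucleotidase CD73, fell from 342 ± 49.0 to 188 ± 39.9 CPM without overlap (-0.83, adjusted p = 6.11e-06). Naprt, which makes NAD from nicotinic acid, rose by 0.29 (adjusted p = 0.00102), Sirt3 by 0.22 (adjusted p = 0.0303) and Qprt by 0.19 (adjusted p = 0.0219), and none of these 3 passed without the factors of unwanted variation (adjusted p = 0.137, 0.0635 and 0.153). Sirt3 also lost the call without any 1 of 6 mice (adjusted p = 0.0504 to 0.132, ZT0 mice 1 to 4 and ZT4 mice 4 and 5) and Qprt without any 1 of 4 (0.0521 to 0.108, ZT0 mice 3 and 4 and ZT4 mice 3 and 4). Of 26 cell cycle genes 2 rose and 1 fell, a share near the 11.8% of all tested genes. The replication licensing gene Cdt1 rose by 1.17 (1.47 ± 0.569 to 3.58 ± 0.438 CPM, adjusted p = 3.32e-06), and Ccnd1 rose by 0.31 (adjusted p = 0.039, but 0.0715 to 0.180 without any 1 of 6 of the mice and 0.0546 without the factors of unwanted variation). Cdkn1a, named above, was the member that fell.

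Outside the lists, the largest rises at a mean of at least 1 CPM without overlap were in Ccdc150 (1.799), Tagap (1.77), Kcnh1, a potassium channel (1.53), Gpr179 (1.51), Rnf212b (1.34), Cyp2j7 (1.28), Zc3h6 (1.23) and Slc35f3 (1.19), with adjusted p from 6.85e-09 to 0.00563. The largest falls were in Lonrf3 (-1.71), Banp (-1.58), Ypel2 (-1.51), Insc (-1.41), Rhobtb1 (-1.22), Brca1, a DNA repair gene (-1.06), and Inava (-1.05), with adjusted p from 1.42e-18 to 4.24e-04. Rhobtb1 was the most precise of them, with 111, 88.5, 111, 101 and 96.8 CPM at ZT0 and 45.2, 38.0, 40.7, 51.5 and 44.5 CPM at ZT4. Ifi208 (-2.15), Tiam2 (-1.19) and Pdzrn4 (-1.14) met the same rule at an adjusted p of 0.0246 to 0.0289. Their calls were lost without 6, 3 and 4 single mice (adjusted p = 0.0503 to 0.0859, 0.0512 to 0.0885 and 0.0666 to 0.103), ZT4 mouse 4 in each case, and in the shared batches (0.131, 0.126 and 0.211).

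The other 4 h steps of the control mice called between 36 and 1623 genes. The neighbouring steps each share 1 group of mice with the step from ZT0 to ZT4, and 36 genes were called between ZT4 and ZT8 (0.232%) and 43 between ZT20 and ZT0 (0.277%). Between ZT8 and ZT12 437 genes were called (2.81%), across lights off between ZT12 and ZT16 1623 (10.4%), and between ZT16 and ZT20 102 (0.656%). Dbp was 2.15 CPM on average at ZT20, 2.82 at ZT0, 47.2 at ZT4, 66.8 at ZT8 and 49.6 at ZT12. Arntl was 47.3 CPM at ZT20 and 48.4 at ZT0, then 10.3 at ZT4 and 2.73 at ZT8, where the further fall of 1.94 was called (adjusted p = 1.28e-05). Nr1d1 was already higher at ZT0 than at ZT20 (log2 fold change 1.86, adjusted p = 5.46e-06), and at 50.1 CPM at ZT8 its change from ZT4 was not called. Cry1, which fell up to ZT4, also fell from ZT20 to ZT0 (-1.01, adjusted p = 6.35e-09) and rose from ZT4 to ZT8 (1.22, adjusted p = 5.54e-07). For Hsph1, Insig1, Heatr1, Slc6a19 and Igfbp1 neither neighbouring step was called.

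**Figure D4:**
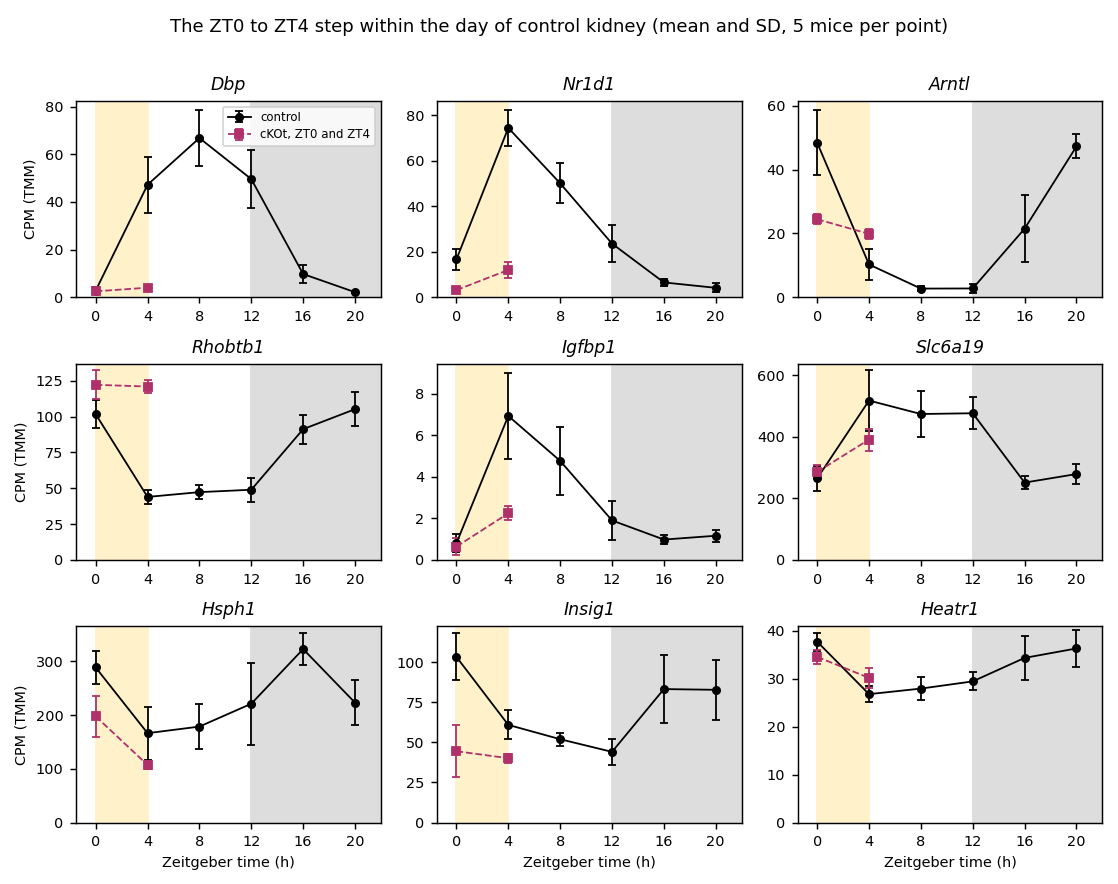
Mean CPM ± SD (n = 5 mice per point, linear axis from 0) of 9 genes over 24 h in control mice (black) and at ZT0 and ZT4 in cKOt mice (magenta), with the ZT0 to ZT4 step shaded yellow and the dark phase grey. Control Nr1d1 and Igfbp1 have their highest of the 6 means at ZT4, and Rhobtb1 is at 102 CPM at ZT0 and 44.0 CPM at ZT4 in control mice but level in cKOt mice.

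The same step in cKOt mice called 1179 genes (7.58%), and 586 were called in both genotypes, 584 of them in the same direction. A difference of the step between genotypes was called for 45 genes (0.289%), of which 41 were called in control mice and 39 had the larger step there, and 1118 had an unadjusted p under 0.05. Of the 18 core clock genes 8 were among the 45. Dbp rose by 4.00 in control mice and 0.86 in cKOt mice (difference 3.14, SE 0.36, adjusted p = 3.33e-08), and Ciart by 2.76 in control mice against a change of -0.76 (difference 3.52, adjusted p = 0.00158). Arntl, Npas2, Nfil3 and Cry1 differed by -1.86, -2.003, -2.498 and -1.79 (adjusted p = 8.08e-05, 5.38e-05, 0.00198 and 1.90e-10), each with a step in cKOt mice between -0.36 and 0.20 that was not called. Per3 and Tef differed by 1.31 and 0.97 (adjusted p = 0.00113 and 2.62e-06). Beyond the clock lists, Rhobtb1 was 122 ± 10.1 and 121 ± 4.41 CPM in cKOt mice (difference -1.22, adjusted p = 3.95e-12), and Ypel2 (-1.70), the long noncoding RNA AC117816.1 (-0.50), Slc16a1 (-0.99), Lonrf3 (-1.19), Inava (-0.89), Slc9a3 (0.49) and Dgat2 (0.41) differed too.

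For Nr1d1, Banp and Cirbp no difference of the step was called. Nr1d1 rose from 3.17 ± 1.02 to 12.0 ± 3.41 CPM in cKOt mice. The step was 2.09 beside 2.08 in control mice, and the difference was -0.01 (SE 0.28). Banp fell by 1.58 and 1.38 (difference -0.21, SE 0.32) and Cirbp rose by 0.80 and 0.84 (difference -0.04, SE 0.22). Of the heat shock genes 13 of 21 were called lower in cKOt mice (median -0.44), of the endoplasmic reticulum genes 12 of 30 (median -0.21) and of the ribosome biogenesis genes 13 of 32 (1 higher, median -0.19). Over all tested genes 7.58% were called in cKOt mice, higher and lower together. Of the 23 sterol genes 0 were called in cKOt mice by edgeR, DESeq2 or limma, with 0 higher and 4 lower at an unadjusted p under 0.05 (median -0.09), beside 10 lower in control mice (median -0.21). In none of these 4 lists was a member called for a difference between genotypes by edgeR, DESeq2 or limma, and 1, 2, 4 and 4 members had an unadjusted p under 0.05, so that neither a difference nor its absence was shown.

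**Figure D5:**
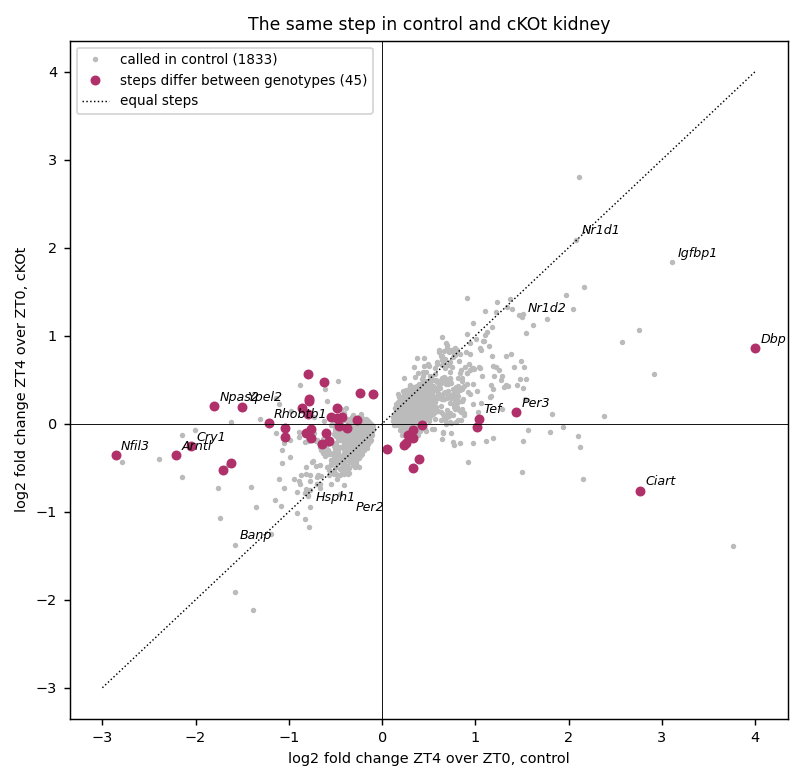
Log2 fold change of ZT4 over ZT0 in control mice (horizontal) against that in cKOt mice (vertical) for the 1833 genes called in control mice (grey) and the 45 genes whose step differed between genotypes (magenta), with equal steps on the dotted line. Dbp, Ciart, Nfil3, Cry1 and Npas2 lie far from the line and near a step of 0 in cKOt mice or, for Dbp and Ciart, at 0.86 and -0.76, while Nr1d1 and Nr1d2 lie close to the line.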

How the data were processed

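Per the labels and the study's methods, TruSeq stranded mRNA libraries were read on a HiSeq 4000 as single reads, trimmed with cutadapt 1.8, aligned to GRCm38 with STAR 2.5.3a and counted per gene by the authors with HTSeq 0.9.1. The deposited values are raw counts of uniquely placed reads, 1 table per mouse, and 5 summary rows that name no gene were left out. Reads placed at several sites made up 26.1% to 29.4% of all reads in the 10 libraries, and reads outside genes 7.35% to 8.79% of those placed once. The annotation release is not given in the sources used here, and symbols came from a table that named 55154 of 55335 gene IDs.

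A gene was kept where any of the 60 libraries reached 1 CPM (15546 genes), and libraries were scaled by TMM. The main test was the quasi-likelihood F test of edgeR 4.0.16 (R 4.3.3) on all 60 libraries with 12 groups and 2 factors of unwanted variation estimated with the RUVs approach, all tests two-sided, with Benjamini-Hochberg adjustment over all kept genes and a threshold of 0.05. Called means past that threshold, and log2 fold changes are ZT4 over ZT0 with SE from the F statistic. CPM values in the text are scaled but not corrected for those factors. Limma 3.58.1 and DESeq2 1.42.0 were used as alternatives. Counts were simulated for this comparison (15050 genes) with 50 genes changed at each fold size, drawn from genes with an expected count of at least 50. The simulated counts held 2 factors of unwanted variation, the number that the fit allows for. Apart from these factors and counting noise, the spread between mice was the same for every gene. There the test recovered 2% of 1.2-fold, 76% of 1.5-fold and 100% of 2-fold and 4-fold changes, with 6.08% false among the called. Far fewer genes changed there than were called in the data, so these rates need not hold for the data. Replicates are separate mice. No pair of libraries was identical. Their replicate numbers did not pair the mice of the time points.

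The batch the authors list, whose step is not stated, took 6 values among the 10 mice, 4 of them shared by both time points. The members and gene lists were chosen with earlier results of these data known. Named genes were all core clock members, the 15 largest rises and 15 largest falls (called, mean of at least 1 CPM, no overlap, no predicted model), up to 4 called members per other list and the 8 smallest p values of the genotype difference. A few genes are not reported here and were left out of the lists and the named genes, not of the fits. Slc5a12, Slc2a2, Mt1, Nfkbia, Rbm3, Acly, Elovl5, Bsnd, Oxsr1 and Kcnj10 were named after their values were seen. The share of promoters with a motif was not compared between called and other genes, since 76.8% of called higher, 79.8% of called lower and 73.5% of all kept genes had a window.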

Additional observations from a re-analysis of the deposited data

Results flagged for a closer look

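In 190 groups of 5 mice, the 2 time points of 95 named genes, 9 held 1 mouse whose gap to the nearest other passed Dixon's limit of 0.71. Chance gives about 1 in 20 such groups, so the number of flags was near the number expected by chance. ZT0 mouse 5 was the highest of its group in Dbp (5.563 CPM, next 2.32), Ciart (2.608, next 1.349), Bhlhe41 (5.274, next 2.486) and Cirbp (21.44, next 17.5). ZT4 mouse 2 was the highest of its group in Dnajb1 (51.44 CPM, next 28.22) and Nr1d2 (237.8, next 186.9). Acot1 in ZT0 mouse 4 (58.83 CPM, next 48.85) and Depp1 in ZT0 mouse 2 (2.485, next 2.262) were high, and Insc in ZT4 mouse 5 (0.5181, next 1.208) was low. Whether anything beyond chance set these mice apart was not tested.

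For 16 named genes the step from ZT0 to ZT4 differed between genotypes in edgeR's quasi-likelihood test. Whether these differences hold when single mice are left out was not assessed. The values are log2 steps in control minus cKOt mice, each with its adjusted p. Among clock genes they were 3.524 for Ciart (0.00158), 3.14 for Dbp (3.33e-08), 1.307 for Per3 (0.00113), 0.9744 for Tef (2.62e-06), -1.79 for Cry1 (1.9e-10), -1.857 for Arntl (8.08e-05), -2.003 for Npas2 (5.38e-05) and -2.498 for Nfil3 (0.00198). Elsewhere they were 0.4863 for Slc9a3 (0.0164), 0.4143 for Dgat2 (0.0027), -0.5033 for AC117816.1 (9.92e-06), -0.8881 for Inava (0.00128), -0.9929 for Slc16a1 (0.0225), -1.185 for Lonrf3 (0.028), -1.222 for Rhobtb1 (3.95e-12) and -1.699 for Ypel2 (3.33e-08).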

How the results depend on the processing

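The number of genes called depended on how unwanted variation was handled. Beside 1833 (881 higher, 952 lower), 1009 (506 and 503) were called without the RUVs factors, 1011 (497 and 514) with the listed batch in their place, 1054 (551 and 503) in a fit of the 10 mice alone without the factors, 1182 (568 and 614) in the batches that held both time points and 338 (228 and 110) with a change of at least 1.5-fold required. Leaving out 1 mouse gave 1361 to 1900 genes, 665 to 933 higher and 696 to 967 lower, lowest without ZT4 mouse 4 and highest without ZT4 mouse 2. The 45 genes whose step differed between genotypes became 73 by DESeq2's Wald test and 29 with a 1.5-fold difference required. The replicate numbers did not pair the mice (correlations of same-numbered deviations -0.191 to 0.114), and a replicate block gave 1835 genes (888 higher, 947 lower) and 42 for the difference. Apart from DESeq2's Wald test for the genotype difference, another size factor, filter or tool, or the 30 control mice alone, stayed within 1.5 times of the main counts. Of 1995 values of the 95 named genes under these alternatives, 188 lost the call, 4 gained it and 0 changed direction, and 61 of 92 called genes kept the call in all. At 5 mice per time the test found few changes near 1.2-fold in simulated data. Those data had fewer changed genes and, apart from simulated factors of unwanted variation and counting noise, the same spread for every gene. Small changes may have been missed in the real data, but the simulation cannot say how many.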
